A study of Populus ussuriensis with 18 samples.

Results

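In roots of Populus ussuriensis seedlings under drought imposed with polyethylene glycol (PEG), 86 transcripts reached their highest level after 24 h. They were chosen from the deposited FPKM (fragment counts divided by transcript length and by library size) by a fixed rule. The mean log2(FPKM + 1) at 24 h had to exceed that at 0 h by at least 1 and that at each of 6, 12, 48 and 120 h by at least 0.3, in transcripts no shorter than 400 bp that reached 1 FPKM in 3 or more libraries. Of 12994 transcripts listed, 11404 met the length and level minimum, and the 86 members made up 0.754% of these. The levels at 24 h, at 0 h and at the other times therefore chose the members, and the rise to 24 h and the fall after it are given below as descriptions, with no test. The same rule applied to the other treated times found 418 transcripts that peaked at 6 h, 168 at 12 h, 13 at 48 h and 54 at 120 h. Its mirror image found 21 transcripts that were lowest at 24 h.

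The samples were roots of wild-type tissue-culture seedlings, 3 weeks old, moved to liquid medium with 6% PEG for 6, 12, 24, 48 or 120 h, or taken at 0 h. Each of the 6 times had 3 biological replicates, and every sample was a pool of at least 6 seedlings, so that the spread between replicates is a spread between pools. The roots taken at 0 h were the only control, and no seedlings in liquid medium without PEG are among the samples. Time in PEG and time after transfer to liquid medium cannot be told apart.

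PEG of high molecular weight holds water outside the root and lowers the water potential of the medium, which plant cells sense as a shortage of water. Abscisic acid, ethylene and protein kinase cascades carry this signal to transcription factors, among them the AP2/ERF family, whose members bind DNA through the AP2 domain. Roots under water shortage also change their cell walls, through peroxidases, dirigent proteins and structural wall proteins, and raise enzymes that detoxify reactive compounds. In RNA from whole roots, fewer cells of a type and less RNA per cell cannot be told apart.

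Across the transcripts tested, 16 of the 18 libraries correlated best with the mean of the other libraries of their own time. The library labelled 48 h replicate 3 was nearest to 120 h. Its Pearson r across transcripts was 0.9692 with the mean of the 120 h libraries and 0.9657 with that of the other 48 h libraries. For 48 h replicates 1 and 2, r reached 0.979 with their own time. The library labelled 120 h replicate 1 stood at 0.9739 with 48 h and 0.9733 with its own time. The mean of the own time held 2 libraries and that of another time 3, so gaps this small are not compared like for like. The values at 48 h in the members rest in part on the first of these libraries and are given with and without it. Root markers of nitrate and ammonium uptake (6 transcripts) summed to 333 to 352 FPKM in the 24 h libraries and to 1420 to 1483 FPKM in the 0 h libraries. Green-tissue markers, transcripts for photosystem subunits and chlorophyll binding, were present as well, and the 22 of them summed to 2589 to 3060 FPKM at 24 h and to 2839 to 2948 FPKM at 0 h. Both sums differed at the other times. The root markers summed to 471 to 485 FPKM at 6 h and 285 to 315 at 12 h. At 48 h they summed to 821 to 867 FPKM, and at 120 h to 1084 to 1531. The green-tissue markers summed to 1217 to 1319 FPKM at 6 h and 2061 to 2135 at 12 h. Their sums were 3729 to 4190 FPKM at 48 h and 4119 to 5320 at 120 h. No member belongs to either list, and the part of tissue composition in the members' levels was not tested.

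The members rose to 24 h by a median of 1.67 on the log2(FPKM + 1) scale, from 1.01 in the smallest case to 8.45 in the largest, with the middle 50% of members between 1.30 and 2.48. The median difference of all 11404 eligible transcripts was 0.01. The 86 members summed to 2758 to 2933 FPKM in the 0 h libraries, 4642 to 5093 at 6 h, then 6056 to 6208 at 12 h, 10797 to 12042 at 24 h, followed by 5919 to 6665 at 48 h and 4202 to 5274 at 120 h. The sum at 24 h thus lay above that of every other library, in keeping with the rule. Most of the approach to the peak took place between the samplings at 12 h and 24 h: the median member had covered 19.7% of its rise at 6 h and 36.1% at 12 h. At 48 h the median member retained 46.2% of the rise, and 61.3% without 48 h replicate 3. At 120 h it retained 17.2%, and 25 members lay below their 0 h mean.

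**Figure D1:**
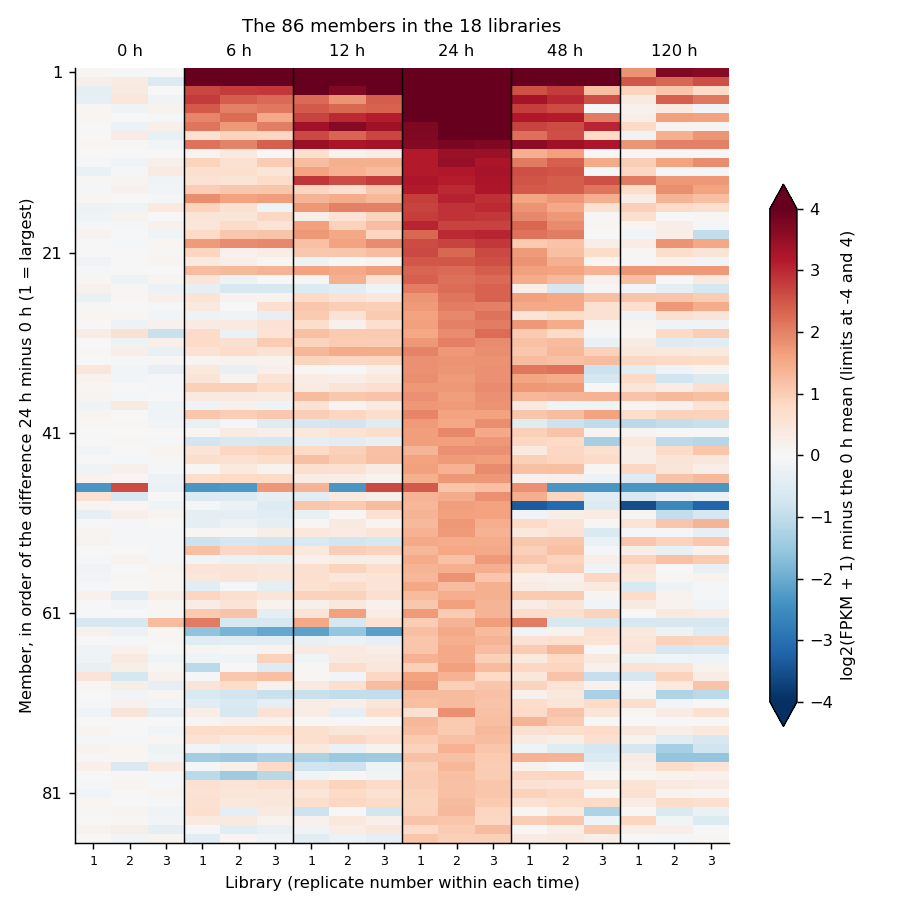
Each row is 1 of the 86 members, in order of the difference 24 h minus 0 h, and each column 1 of the 18 libraries in order of time. Colour gives log2(FPKM + 1) minus the member's 0 h mean, limited to -4 and 4. The 24 h columns are the darkest, and the column of 48 h replicate 3 is paler than its neighbours to the left in most rows.

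**Figure D2:**
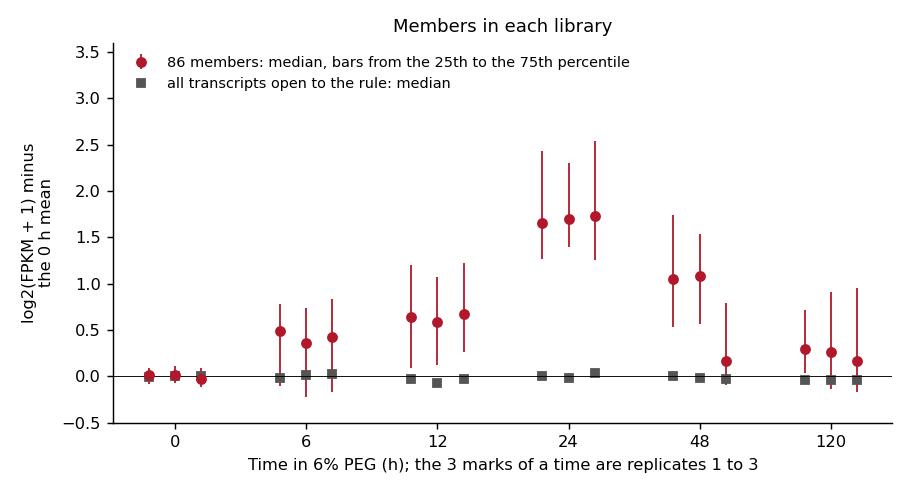
Median of log2(FPKM + 1) minus the 0 h mean, in each library, over the 86 members (circles, with bars from the 25th to the 75th percentile) and over the 11404 eligible transcripts (squares). Member medians lie at 1.65 to 1.73 at 24 h, at 1.05 and 1.09 in 48 h replicates 1 and 2, and at 0.17 in 48 h replicate 3, while the squares stay between -0.07 and 0.03.

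The shapes before the peak differed among members. The largest number, 38, had 48 h as the time with the next highest level, 30 had 12 h, 8 had 6 h, 7 had 120 h and 3 had 0 h. At 6 h, 14 members had passed 50% of their rise while 23 lay below their 0 h mean, and at 12 h these counts were 29 and 13. The set therefore holds stepwise climbers, late risers that hardly moved before 24 h and transcripts that first dipped, and an example of each is given below with its values.

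In 67 members all 3 libraries at 24 h lay above all 15 other libraries, against 2.15% of the eligible transcripts. This count is fixed in large part by the rule. As a further description, each 24 h library was left out of the means of the rule in turn. The level minimum still counted the left-out library, and the rule kept the means of the other times low. The shares below are therefore also fixed in part by the rule. Without 24 h replicate 1 the rule found 95 transcripts, and the left-out library was above all 15 libraries of other times in 72 of them (75.8%), against 6.40% of all eligible transcripts. For 24 h replicate 2 it was 72 of 94 (76.6%, against 6.90%), and for 24 h replicate 3 it was 74 of 95 (77.9%, against 6.83%). The left-out library exceeded the 0 h mean by a median of 1.56, 1.64 and 1.62 in the selected transcripts for replicates 1, 2 and 3, and by 0.01, -0.01 and 0.03 in all eligible transcripts.

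The library labelled 48 h replicate 3 set the level of many members at 48 h. It was the lowest of its time in 64 of the 86 members (74.4%), against 43.4% of eligible transcripts, and it lay at least 1 below the mean of replicates 1 and 2 on the log2(FPKM + 1) scale in 33 members, against 1.98% of eligible transcripts. A low value at 48 h helps a transcript to pass the rule, so the same count was made with this library left out of the means. The level minimum still counted it. The rule then found 73 transcripts, every one a member, and replicate 3 was the lowest 48 h library in 51 of them (69.9%) and lower by at least 1 in 25 (34.2%). In 44 of the 73 (60.3%) it was at or below the highest 120 h library, which held for 69.1% of eligible transcripts, whereas in 47 of them (64.4%, against 22.6%) replicates 1 and 2 were both above all 120 h libraries. With this library left out, transcripts that peaked at 48 h numbered 49 in place of 13. The library labelled 120 h replicate 1 was the highest of its time in 38 members (44.2%, and 44.2% of eligible transcripts) and lay at least 1 above the mean of replicates 2 and 3 in 7 (8.14%, against 1.15%). What sets these libraries apart was not tested. Samples were kept as labelled, and whether these 2 libraries were exchanged between the times was not tested.

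**Figure D3:**
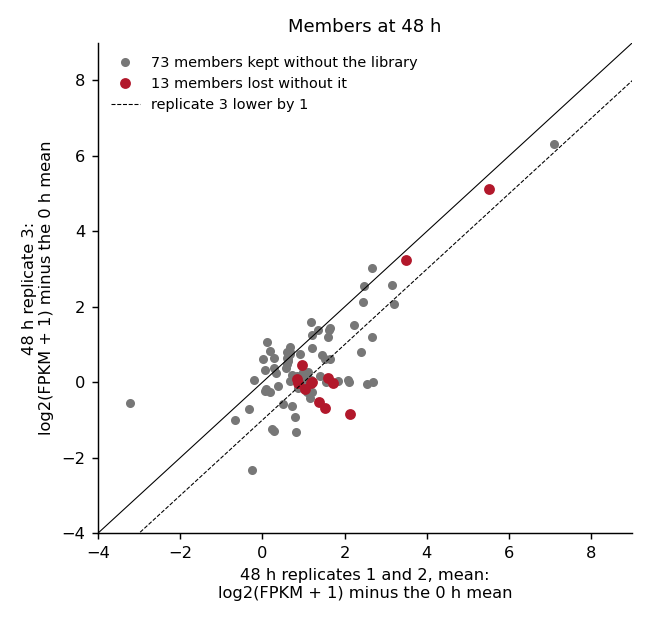
Each point is a member, with the mean of 48 h replicates 1 and 2 on the x axis and 48 h replicate 3 on the y axis, both as log2(FPKM + 1) minus the 0 h mean. Most points lie below the solid line of equality, 33 of them on or below the dashed line where replicate 3 is lower by 1, and the 13 members lost without replicate 3 are drawn in red.

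The largest annotated group among the members was the AP2/ERF family of transcription factors. Of 18 annotated AP2/ERF transcripts open to the rule, 8 were members. The median difference 24 h minus 0 h of the 18 was 1.11, in part through the rule, which required at least 1 of the 8 members. Of the 10 that were not members, limma called 3 higher at 24 h than at 0 h and 2 lower. Of all transcripts tested, 4.43% and 1.81% were called, and no test is given for the 8 members. Annotated transcripts are an unlike set: 211 of the 1016 eligible ones rose by at least 1, against 536 of all 11404. Nothing about the family is therefore read from these counts. Members made up 3.84% of the 1016 eligible transcripts with annotation, the background to the family counts below. In 4 of the 8 the nearest protein was ERF017, named after an Arabidopsis factor of the family. The most abundant of them, f8p60_1108_28852 (P. trichocarpa locus POPTR_0018s08320g), had 0.26, 0.07 and 0.34 FPKM at 0 h, 5.6, 3.94 and 4.3 at 6 h, then 5.67, 4.98 and 5.21 at 12 h, 25.78, 28.46 and 25.64 at 24 h, followed by 7.27, 6.38 and 0.22 at 48 h and 0.37, 0.61 and 0.14 at 120 h. It stood on a plateau at 6 h and 12 h, rose well above it at 24 h, and was back near the 0 h values at 120 h and, of the 48 h libraries, in replicate 3 alone.

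The ERF017 transcripts f13p60_1056_30338 and f5p60_1049_10884, whose P. trichocarpa loci POPTR_0006s14100g and POPTR_0006s14090g carry neighbouring numbers, also peaked at 24 h, at lower levels. For f13p60_1056_30338 the values were 0.21, 0.38 and 0.81 FPKM at 0 h, 1.27, 1.31 and 1.01 at 6 h, then 3.39, 2.82 and 2.51 at 12 h, 12.05, 12.36 and 13.19 at 24 h, followed by 7.62, 7.31 and 0.39 at 48 h and 1.57, 0.37 and 0.38 at 120 h. It climbed at each sampling up to 24 h. By contrast, f5p60_1049_10884 did not exceed 1.2 FPKM in any library at 6 h or 12 h, reached 7.1, 7.79 and 7.55 FPKM at 24 h, and had 3.56, 3.01 and 0.23 at 48 h. The fourth, f2p12_1146_9968 (POPTR_0006s23480g), had 2.17, 2.81 and 1.88 FPKM at 24 h and was listed at 0 in all 0 h libraries.

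**Figure D4:**
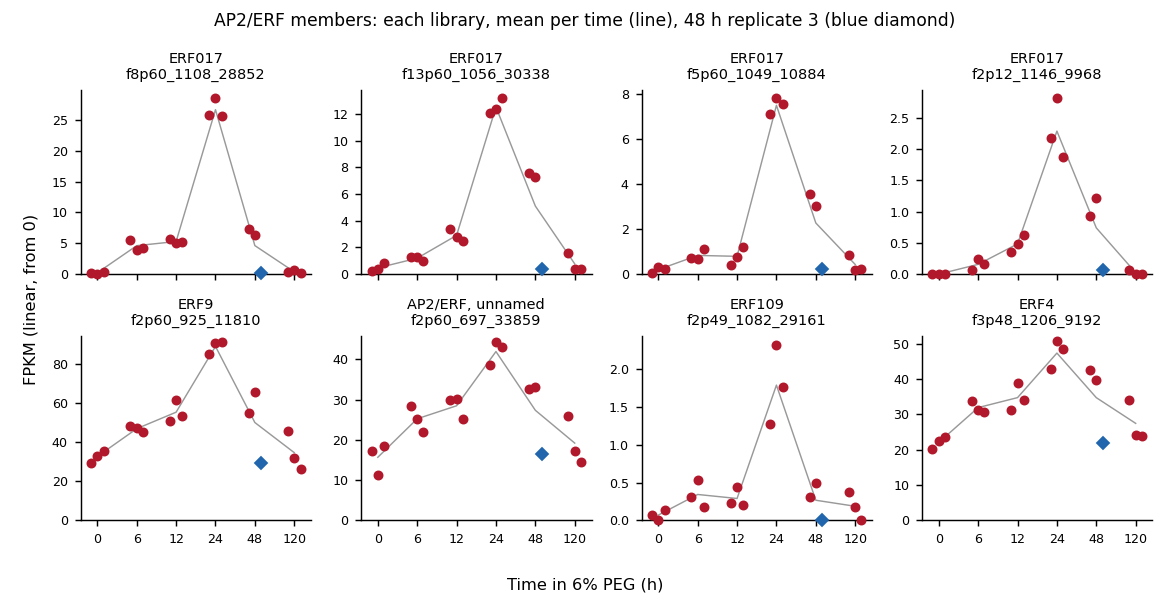
FPKM on a linear axis from 0, against time in PEG, for the 8 AP2/ERF members in order of the difference 24 h minus 0 h. Points are libraries, lines join the means of each time, and the blue diamond is 48 h replicate 3, which is the lowest 48 h library in every panel; the transcripts of ERF017 reach 28.46 FPKM and that of ERF9 reaches 91.24 FPKM.

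The other AP2/ERF members began from different levels. ERF109 (f2p49_1082_29161), known in Arabidopsis as a redox-responsive factor, had 1.28, 2.33 and 1.77 FPKM at 24 h and 0.07, 0 and 0.14 at 0 h, and no library of another time exceeded 0.54 FPKM. ERF9 (f2p60_925_11810), which in Arabidopsis represses transcription, was well expressed throughout, with 29.39, 33.12 and 35.64 FPKM at 0 h, 51.1, 61.46 and 53.62 at 12 h, then 85.24, 90.76 and 91.24 at 24 h, 55.13, 65.67 and 29.46 at 48 h, followed by 45.8, 32.08 and 26.14 at 120 h. An unnamed AP2/ERF transcript of the same locus (f2p60_697_33859, POPTR_0007s01110g) ran in parallel and averaged 41.9 FPKM at 24 h, and since the 2 may share reads their levels may not be independent. ERF4 (f3p48_1206_9192), likewise a repressor in Arabidopsis, had 42.93, 50.66 and 48.35 FPKM at 24 h and 20.11, 22.47 and 23.55 at 0 h. Its place in the set depended on 48 h replicate 3: replicates 1 and 2 had 42.63 and 39.58 FPKM and replicate 3 had 21.88, and without that library ERF4 was no longer a member.

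A MAPKKK17 transcript (f4p60_1325_8326), whose Arabidopsis counterpart is a kinase of the abscisic acid pathway, rose late and stayed low in level. It had at most 1.27 FPKM in any library at 0, 6 or 12 h, then 3.37, 4.62 and 4.77 at 24 h, 3.64, 2.88 and 0.51 at 48 h, then 0.52, 0.27 and 0.27 at 120 h. The value of 48 h replicate 1 lies above that of 24 h replicate 1, and the transcript left the set without 48 h replicate 3. Of the 4 MAPKKK transcripts annotated it was the only member. The paper lists this transcript under another name, MAPKKK18, with its largest printed fold change at 120 h. The FPKM used here do not show this, and the source of the difference was not tested.

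Among transcripts for wall and phenolic metabolism, dirigent protein 23 (f3p60_734_33370, POPTR_0001s22170g) had the largest rise of a named protein outside the AP2/ERF family. Dirigent proteins guide the coupling of phenoxy radicals during lignan formation. The study's tables also place this transcript among YABB factors. It had 4.38, 3.56 and 5.14 FPKM at 0 h, 22.31, 16.67 and 21.23 at 6 h, then 53.67, 65.46 and 55.42 at 12 h, 69.43, 95.77 and 94.64 at 24 h, followed by 33.44, 31.63 and 42.78 at 48 h and 8.29, 4.77 and 4.7 at 120 h. Replicates of each time lay close together, 48 h replicate 3 was here the highest of its time, and the 120 h libraries had come back to near the 0 h level.

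Peroxidase 21 (f21p60_1261_27184), a class III peroxidase of the type secreted to the wall, was among the most abundant members. At 24 h it had 668.5, 644.2 and 652.5 FPKM, against 188.2, 177.5 and 191.6 at 0 h, a ratio of mean FPKM of 3.53, and 48 h replicate 3 (440.7) did not stand apart from replicates 1 and 2 (438.7 and 419.2). It was the only member of 26 peroxidase transcripts open to the rule (3.85%, near the share of all annotated transcripts), whose median difference was -0.42. The SRC1 transcript (f4p60_678_14205), named for a soybean gene induced by cold, behaved in the same way at a higher level. It had 595.1, 523.7 and 544.1 FPKM at 0 h, 1318, 1167 and 1226 at 12 h, then 1947, 1781 and 1984 at 24 h, 1402, 1418 and 1461 at 48 h, followed by 1214, 1371 and 1283 at 120 h. Of all named members it kept the highest level at 120 h.

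Structural wall proteins gave 3 members of 19 transcripts. The 14 kDa proline-rich protein DC2.15 (f3p60_670_34256), of a family first described in carrot, dipped before it rose. It had 14.45, 10.72 and 13.43 FPKM at 0 h, 3.56, 2.76 and 2.37 at 6 h, then 2.15, 3.7 and 2.09 at 12 h, 30.79, 38.15 and 32.04 at 24 h, followed by 11.84, 14.21 and 20.01 at 48 h and 17.47, 11.07 and 8.74 at 120 h. All its libraries at 6 h and 12 h were below all at 0 h, and all at 24 h were above every other. A GDSL esterase/lipase of the APG type (f2p55_1390_7772), which the list took in by its proline-rich name and not as a structural protein, had 13.49, 17.16 and 14.57 FPKM at 24 h and 0.53, 0.47 and 0.86 at 0 h, with intermediate levels at 6 h and 12 h. The third, a glycine-rich wall protein (f2p28_510_36372), had 7.83, 13.37 and 9.99 FPKM at 24 h and 2.77, 4.46 and 3.73 at 0 h. The study also places it among NF-Y factors.

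Germin-like proteins, wall proteins of the cupin fold, gave 2 members of 4. Both are named after the peach auxin-binding protein ABP19a. The transcript f2p60_910_11933 had 3.18, 2.97 and 3.14 FPKM at 0 h, 9.15, 12.76 and 10.26 at 24 h, and was still at 4.94, 7.83 and 9.45 at 120 h, where replicate 3 overlaps the 24 h libraries. The transcript f2p60_1059_29388 had 1.67, 2.06 and 1.68 FPKM at 0 h, 6.83, 5.28 and 8.07 at 24 h, then 4.29, 5.27 and 4.81 at 120 h. In these 2 the time with the next highest level was 120 h, which held for 7 members in all.

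The 2 transcripts for ALP1 proteins, derived from transposases and described in Arabidopsis as antagonists of Polycomb silencing, were both members. The ALP1-like transcript f3p60_1976_22165 had 2.47, 3.23 and 2.71 FPKM at 0 h, 7.21, 9.92 and 7.95 at 24 h, then 6.69, 8.49 and 2.75 at 48 h and 4.39, 1.4 and 1.5 at 120 h. The transcript f4p60_1850_22926 had 1.02, 1.11 and 0.84 FPKM at 0 h, 3.37, 3.3 and 2.5 at 24 h, then 2.95, 3.17 and 0.75 at 48 h. In both, 48 h replicate 2 lies within the range at 24 h and replicate 3 no higher than the highest 0 h library, and both left the set without that library.

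A probable glutathione S-transferase (f3p60_1090_29044), of the family that conjugates glutathione to reactive compounds, shows how far that library can set the peak. It did not exceed 1.46 FPKM in any library before 24 h, had 5.33, 5.15 and 5.33 at 24 h, then 6.75, 7.01 and 0 at 48 h, and did not exceed 0.93 at 120 h. In replicates 1 and 2 the level at 48 h was above that at 24 h, and the mean at 24 h was the highest only through the 0 in replicate 3. The paper's printed fold changes for this transcript are by contrast much larger at 24 h than at 48 h. The source of this difference was not tested. It was the only member of 20 glutathione S-transferase transcripts. In all, 13 members were lost without 48 h replicate 3, of which 4 then had a 48 h mean at or above that of 24 h, whereas 58 members stayed in the set whichever library was left out, all 4 ERF017 transcripts among them.

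Members whose annotation gives only a domain included the clearest late risers. The DUF642 transcript f2p60_789_32711, of a plant wall protein family, had 1.29, 1.09 and 0.7 FPKM at 0 h, 0.6, 0.29 and 0.29 at 6 h, then 0.37, 0.48 and 0.77 at 12 h, 7.4, 8.49 and 9.31 at 24 h, followed by 1.39, 0.27 and 1.1 at 48 h and 0.87, 0.58 and 0.24 at 120 h. Outside 24 h no library exceeded 1.39 FPKM. Of 4 DUF4228 transcripts, 2 were members: f2p60_827_32127 had 8.67, 6.63 and 6.63 FPKM at 24 h and 0.1, 0.11 and 0.32 at 0 h, and f2p60_886_31378 had 49.43, 60.77 and 49.67 at 24 h and 19.78, 17.19 and 17.48 at 0 h. The DUF538 transcript f10p60_869_31577 had 2.04, 1.96 and 1.88 FPKM at 0 h, 8.66, 11.11 and 10.86 at 24 h, then 3.7, 8.93 and 7.27 at 120 h, where replicate 2 lies within the range at 24 h.

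The remaining named members rose by 1.02 to 1.42. A transcript of the glyoxalase superfamily (f2p60_946_30654) averaged 4.06 FPKM at 24 h and 0.86 at 0 h. The transcript for 3-ketoacyl-CoA synthase 10 (f5p60_1989_22046), an enzyme of very-long-chain fatty acid elongation, had 10.3, 8.25 and 9.41 FPKM at 24 h and 2.67, 2.93 and 3.08 at 0 h. Amino acid permease 2 (f2p60_2046_21834), a plasma membrane carrier of amino acids, had 7.47, 9.88 and 7.69 FPKM at 24 h and 4.01, 1.91 and 4.59 at 0 h, and was the only member of 6 amino acid transporters. Actin-depolymerizing factor 5 (f3p60_734_13733), of a family that binds actin filaments, had 3.2, 3.98 and 4.97 FPKM at 24 h and 1.7, 1.92 and 0.92 at 0 h, with 4.15 in 48 h replicate 3, the highest of its time and within the range at 24 h.

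Of the 86 members, 39 are in the annotation tables used here and 47 are not, and the largest rise of all was in a transcript without annotation. The transcript f2p60_989_30189 (989 bp) had 0.31, 0.25 and 0.24 FPKM at 0 h, 73.45, 75.84 and 82.0 at 6 h, then 222.2, 207.4 and 213.0 at 12 h, 409.4, 459.1 and 455.3 at 24 h, followed by 175.8, 167.1 and 99.43 at 48 h and 3.38, 15.47 and 14.8 at 120 h. It climbed in large steps at each sampling, and its replicates did not overlap between any 2 times up to 48 h. The next largest rise was that of f2p60_593_35334 (POPTR_0003s05980g, a hypothetical protein), with 0.72, 0.83 and 0 FPKM at 0 h, 64.4, 86.39 and 76.71 at 24 h, then 61.77, 69.24 and 49.91 at 48 h. Its 24 h and 48 h libraries overlap, and without 48 h replicate 3 it was no longer a member.

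Transcripts outside the rule for names were added after their values were seen. The most abundant member, f9p60_560_36082 (560 bp, no named protein), had 488.0, 475.0 and 436.9 FPKM at 0 h, 1696, 1425 and 1477 at 6 h, then 1197, 1313 and 1172 at 12 h, 3162, 3932 and 3516 at 24 h, followed by 1383, 1548 and 1265 at 48 h and 563.5, 1187 and 1083 at 120 h. The study places it among HB factors. The transcript f8p60_828_32121 was listed at 0 in all 0 h and 120 h libraries and in 48 h replicate 3, did not exceed 0.57 FPKM at 6 h or 12 h, and had 8.05, 9.99 and 10.07 FPKM at 24 h. In f2p60_618_14804 the order at 48 h was turned round, with 0.4 and 0.62 FPKM in replicates 1 and 2 and 8.68 in replicate 3. Some members were erratic: f2p22_511_36514 had 26.26, 9.86 and 10.52 FPKM at 24 h but also 29.23 in 0 h replicate 2 and 30.21 in 12 h replicate 3, and was listed at 0 in 8 of the 18 libraries.

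The rule sets no difference among 6, 12, 48 and 120 h, but each of these levels entered it as an upper limit, and transcripts that change were chosen by it. The calls below therefore describe the members, and the share of all transcripts called stands beside them as background from which nothing about the members is read. limma was fitted to log2(FPKM + 1) of 12080 transcripts in all 18 libraries, and calls needed a p below 0.05 after Benjamini-Hochberg adjustment and a log2 change of 1 or more in size. Between 12 h and 6 h, 12 of the 86 members (14.0%) were higher at 12 h and 0 were lower, against 2.49% and 1.64% of all transcripts tested. The median difference was 0.26 over the members and -0.05 over all transcripts. With the fold minimum kept, no member was lower at p under 0.05 before adjustment, or in limma without trend or robust moderation, but 1 was lower without 12 h replicate 3, without 6 h replicate 1 or without 6 h replicate 2. Dirigent protein 23 was higher at 12 h by 1.49 ± 0.19 (SE, limma adjusted p = 2.7e-05), f2p60_989_30189 by 1.46 ± 0.37 (adjusted p = 0.0052) and f2p60_593_35334 by 1.02 ± 0.19 (adjusted p = 0.00053), each in 3 of 3 libraries above all at 6 h. The AP2/ERF members were not among the 12.

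Between 48 h and 12 h, the sampling after the peak and that before it, 5 members were higher at 48 h and 2 were lower, against 2.25% and 3.26% of all transcripts tested. The count of higher members depended on the doubtful library: without 48 h replicate 3 there were 16 higher (18.6%, against 2.74% of all transcripts) and again 2 lower (against 3.54%). DC2.15 was higher at 48 h by 2.16 ± 0.24 (SE) with all libraries (limma adjusted p = 3.9e-06) and by 1.97 without replicate 3 (adjusted p = 1.8e-05), in 3 of 3 libraries above all at 12 h. Among those called only without that library were the ERF017 transcripts f13p60_1056_30338 (1.12, adjusted p = 0.0021) and f5p60_1049_10884 (1.28, adjusted p = 0.00066), MAPKKK17 (1.09, adjusted p = 0.0013) and the glutathione S-transferase f3p60_1090_29044 (2.04, adjusted p = 1.9e-05). The lower ones were f2p60_618_14804 and f3p60_755_13436, and f3p60_755_13436, which has no annotation, had 7.61, 9.18 and 2.37 FPKM at 48 h and 29.47, 18.09 and 26.4 at 12 h.

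Between 120 h and 48 h, 10 members (11.6%) were lower at 120 h and 0 were higher, against 1.06% and 0.19% of all transcripts tested, and the median difference was -0.49 over the members and -0.01 over all. Without 48 h replicate 3 the lower members numbered 30 (34.9%, against 1.61% of all transcripts) and the higher again 0 (against 0.215%). Without 48 h replicate 1 or without 48 h replicate 2 the lower ones numbered 5, and without 120 h replicate 3 they numbered 6. Before adjustment, too, no member passed p under 0.05 and the fold minimum as higher, nor did any in limma without trend or robust moderation, but 1 was higher without 120 h replicate 1. Dirigent protein 23 fell by 2.44 (SE 0.19, limma adjusted p = 1.8e-06), and f2p60_989_30189 fell by 3.79 (SE 0.37, adjusted p = 1.5e-05). MAPKKK17 fell by 1.16 (adjusted p = 0.038), a call that was lost without 120 h replicate 2, 120 h replicate 3, 48 h replicate 1 or 48 h replicate 2, with a difference of -1.11 to -0.84 in these fits.

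All 4 ERF017 transcripts were called lower at 120 h than at 48 h without 48 h replicate 3, and none was called with it, where their adjusted p was between 0.051 and 0.12. Without it the differences were -2.52 for f8p60_1108_28852 (limma adjusted p = 2.5e-07), -2.32 for f13p60_1056_30338 (adjusted p = 1.9e-05), -1.61 for f5p60_1049_10884 (adjusted p = 0.00043) and -1.02 for f2p12_1146_9968 (adjusted p = 0.0083). The DUF4228 transcript f2p60_827_32127 and the ALP1-like transcript f3p60_1976_22165 were likewise called lower only in that fit, with differences of -2.01 (adjusted p = 3.9e-05) and -1.42 (adjusted p = 0.0025).

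**Figure D5:**
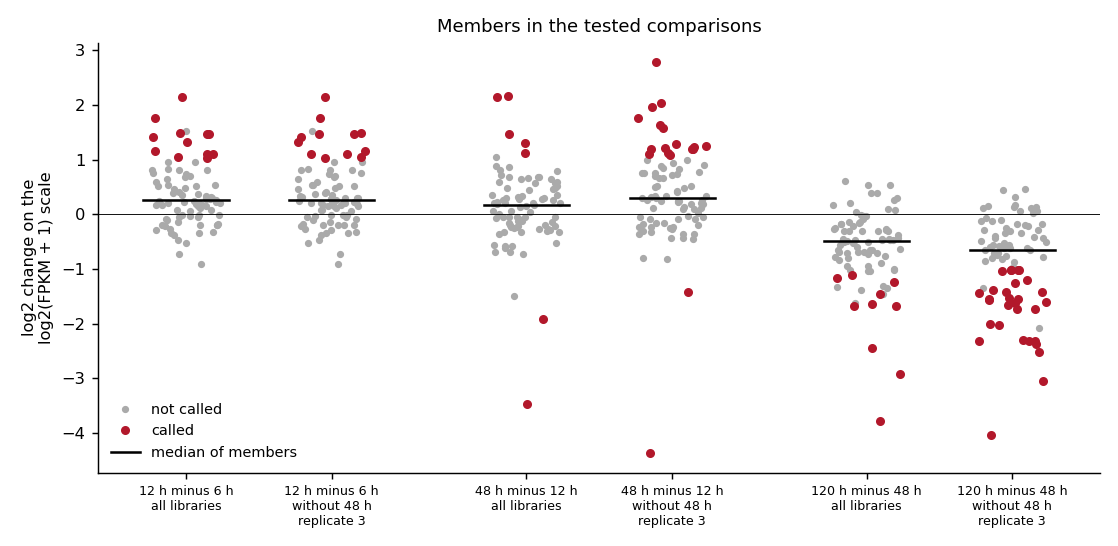
Log2 change of the 86 members on the log2(FPKM + 1) scale in the 3 tested comparisons, each with all libraries and without 48 h replicate 3. Called members are red and the black bar is the median; the called ones at 120 h minus 48 h number 10 with all libraries and 30 without that library, all below 0.

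The median length of the members was 935.5 bp, against 1394 bp for eligible transcripts, a measure the rule used only as a minimum. The median number of full-length reads behind a transcript, which the rule did not use, was 2 in both sets. The levels at 0 h and 24 h enter the rule and are given as a description. At 0 h the median member had 2.67 FPKM, against 33.4 FPKM, and 32 members (37.2%) averaged under 1 FPKM, against 2.17% of eligible transcripts. At 24 h the median member had 12.6 FPKM, with 36 members under 10 and 9 over 100 FPKM. The lowest nonzero value of transcripts near 1 kb was between 0.02 and 0.19 FPKM in a library, and the 0 h levels of the ERF017 transcripts, 0 to 0.81 FPKM, lie near this limit, so that fold ratios against them are imprecise. The median SD between replicates of log2(FPKM + 1) was 0.16 in members and 0.11 in eligible transcripts at 24 h, and 0.47 in members and 0.10 in eligible transcripts at 48 h. Replicate 2 was the highest of the 24 h libraries in 38 members, replicate 3 in 31 and replicate 1 in 17 (33.7%, 30.98% and 35.3% of eligible transcripts).

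A P. trichocarpa locus was given for 30 members, which made 27 distinct loci, with 3 loci shared by 2 members each. The shared loci were POPTR_0007s01110g (ERF9 and the unnamed AP2/ERF transcript), POPTR_0003s08030g (2 hypothetical proteins) and POPTR_0016s13650g (the DUF4228 transcript f2p60_886_31378 and f2p60_469_16117). The members of a pair may share reads, so the 86 transcripts may stand for fewer genes.

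Several families of the drought response had no member. Only 3.84% of annotated eligible transcripts were members, so nothing is read from a list of this size that holds none. None of the 35 transcripts for heat shock proteins and chaperones, of 15 for LEA, dehydrin and desiccation proteins, of 11 for calcium sensors or of 7 for ethylene synthesis and receptors peaked at 24 h by the rule. Their median differences 24 h minus 0 h were 0.33, 0.12, -0.33 and -0.45 on the log2(FPKM + 1) scale. The same held for 10 WRKY (-0.18), 12 MYB (0.36), 11 NAC (-0.03) and 12 C2H2 zinc finger (0.62) factors, for 8 auxin-responsive proteins (-0.58), and for 7 aspartyl proteases (0.25). The 7 lipid-transfer proteins had a median difference of 1.80 at 24 h and still no member: 6 met the rise but not the margin over the other times, and 1 did not meet the rise. The annotation used here covers 1056 of the 12994 transcripts, most of them from tables of transcripts the study listed as changed, so these counts do not cover the families as a whole.

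The thresholds cut through a continuous range. Just inside the minimum rise stood f3p60_2087_21680 with 1.01 and just outside f3p60_760_13391 with 0.98, and 147 transcripts failed the rise alone. For the margin over 48 h the nearest were f2p60_827_12869 inside (0.31) and f3p60_672_34222 outside (0.23), with 14 transcripts that failed this alone. For 12 h they were f7p60_812_32429 (0.30) and f2p60_872_31557 (0.29), with 44 such transcripts. For 6 h they were f3p60_1194_9387 (0.44) and f2p60_931_11929 (0.22), with 22, and for 120 h f2p60_1059_29388 (0.40) and f2p47_598_35248 (0.29), with 9.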

How the data were processed

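Roots of 18 samples (6 times, 3 replicates) were sequenced as 150 bp paired ends. The authors mapped the reads to their own long-read transcripts with RSEM 1.2.31 and deposited FPKM, and the submitters' processing notes also name HTSeq 0.6.0. Read counts were not used, so depth per library is not given and precision is the spread between replicates. Columns carry codes (C1 to T53) and were read as 0 h and the treated times in order. The log2 fold changes of each block were set against those printed by the study for 825 transcripts. For each time the median absolute difference was smallest for its own block. It was 0.02 to 0.06 there and 0.32 to 0.59 for the next best block. Single transcripts can still differ. Names come from the annotation cells of the study's supplementary tables. The study's own fold changes were used otherwise only for remarks on MAPKKK17 and a glutathione S-transferase, and its p-values were not used.

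FPKM were transformed to log2(FPKM + 1), and the 12080 transcripts that reached 1 FPKM in 3 or more libraries were fitted in limma 3.58.1 (R 4.3.3) with time as a factor, 12 residual degrees of freedom, an intensity trend and robust moderation. P-values were adjusted over all transcripts tested, for each comparison. The fit was tested on simulated data. The members, the annotation lists and the tests were chosen with earlier results of these data known. Every member with a named protein or domain was named, besides the 2 members with the largest rise and no named protein and those next to each threshold. Alternatives were another pseudocount, filter, length minimum, margin and scaling, a replicate block, no fold minimum, no trend or robust moderation, and leaving out each library. Python 3.11.15 with pandas 2.3.3, numpy 2.4.6 and matplotlib 3.10.9 made the tables and plots.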

Additional observations from a re-analysis of the deposited data

How the results depend on the processing

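The rule gave 86 members, and 73 to 95 when each library was left out in turn (lowest without 48 h replicate 3, highest without 24 h replicate 1 or 3). It gave 110 with a pseudocount of 0.1 and 66 with a margin of 0.5, and between 79 and 102 under the other settings of pseudocount, filter, length and scaling.

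For 12 h against 6 h the members called were 9 to 12 higher and 0 to 1 lower over the fits that leave out 1 library, 1 lower with a pseudocount of 0.1, and 21 higher and 2 lower with no fold minimum. For 48 h against 12 h they were 4 to 16 higher and 2 lower without 1 library, and 15 higher and 7 lower with no fold minimum. For 120 h against 48 h they were 0 to 1 higher and 5 to 30 lower without 1 library, and 18 lower with no fold minimum. Leaving out 48 h replicate 3 and 120 h replicate 1 together, a setting chosen after seeing the data, gave 72 members, 16 higher at 48 h than at 12 h, and 1 higher and 30 lower at 120 h than at 48 h.

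Replicates of the same number did not deviate together (correlations of -0.07 to 0.08), so the numbers were not taken as pairs. With a replicate block the counts were 12 higher and 0 lower for 12 h against 6 h, 5 and 2 for 48 h against 12 h, and 0 and 8 for 120 h against 48 h.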
